A study of Homo sapiens with 9 samples.

Results

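The angiopoietin-like genes ANGPTL4, ANGPTL6 and ANGPTL8 and the lipoprotein lipase genes LPL, LIPC and LIPG were examined in Hep3B cells, an established human liver cancer line, exposed to low oxygen with or without 32-134D, a compound that the study developed as an inhibitor of hypoxia-inducible factors (HIFs). The genes were chosen by symbol, and each of the 6 symbols was found once among the 60683 genes of the count table. RNA was sequenced from 3 groups of 3 biological replicates, all exposed for 24 hours. The groups were vehicle (DMSO) at 20% O2, vehicle (DMSO) at 1% O2, and 32-134D at 1% O2, with a dose of 5 μM according to the methods of the study, since the sample labels give none. All 9 cultures came from the same cell line, and no library with 32-134D at 20% O2 was analysed here, so an effect of the compound on these genes in well-oxygenated cells cannot be told apart from an effect on their response to hypoxia.

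Lipoprotein lipase (LPL) and endothelial lipase (LIPG) work at the surface of blood vessels, where LPL releases fatty acids from triglyceride-rich lipoproteins and LIPG cleaves mainly the phospholipids of high-density lipoproteins. Hepatic lipase (LIPC) is made by hepatocytes and acts on remnant particles and high-density lipoproteins. ANGPTL4 and ANGPTL8 are secreted proteins that restrain LPL, ANGPTL4 being known as a gene induced by fasting, by peroxisome proliferator-activated receptors (PPARs) and by hypoxia, and ANGPTL8 as a liver and fat gene induced by feeding. ANGPTL6 is a liver-secreted relative known for effects on vessels and energy use.

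Total counts ran from 6013980 to 40549699 per library, and both extremes were vehicle libraries. Levels are given in CPM (counts-per-million) after TMM scaling of the library sizes, and log2 fold changes with their SE come from 1 edgeR quasi-likelihood fit of the 9 libraries. A gene was called when its Benjamini-Hochberg FDR over the 22672 genes tested was below 0.05 and its fold change above 1.5. CA9, a HIF target used here to check the labels, stood at 27.9 ± 1.14, 580 ± 61.8 and 56.6 ± 5.68 CPM (SD, n = 3) in vehicle at 20% O2, vehicle at 1% O2 and 32-134D at 1% O2. VEGFA, which encodes a vessel growth factor and served as the other check, had log2 fold changes of 2.45 in hypoxia and -1.81 with 32-134D at 1% O2. All 8 hepatocyte markers were above 1 CPM in every group, and their summed level was 16646 to 17962 CPM in vehicle at 20% O2, 11617 to 14461 CPM in vehicle at 1% O2 and 11159 to 16546 CPM with 32-134D. Of the 4 endothelial markers, VWF and TEK had no count in any library and CDH5 had 1. Their sum, nearly all of it PECAM1, was 0.639 to 1.0 CPM in vehicle at 20% O2, 0.0943 to 0.380 CPM in vehicle at 1% O2 and 0.505 to 1.28 CPM with 32-134D. The 4 adipocyte markers summed to between 0.82 and 2.29 CPM. The macrophage markers summed to between 2.92 and 5.45 CPM. The fibroblast markers, of which PDGFRB gave most, summed to 32.9 to 37.5 CPM in vehicle at 20% O2, 13.3 to 14.8 CPM in vehicle at 1% O2 and 28.9 to 30.5 CPM with 32-134D. The part of these markers in the results below was not tested. In bulk RNA, fewer cells that express a gene and less RNA per cell cannot be told apart. Replicate 3 of 32-134D stood apart from replicates 1 and 2 as a whole library, and so in several of the genes below. Chi-square divided by its degrees of freedom was 36.4 between replicates 1 and 3 and 32.5 between replicates 2 and 3. Between replicates 1 and 2 of 32-134D it was 1.998, and every pair of vehicle replicates within a group lay below 32.5. The cause was not tested. The values without replicate 3 are given for ANGPTL8, APOC3, CD36, LIPH, LRP8, PCSK5, PNPLA3 and VLDLR.

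The inhibitor genes and the lipase genes that were called moved in opposite directions in hypoxia and with 32-134D. In vehicle at 1% O2 against vehicle at 20% O2, 2 of the 5 members tested were higher (ANGPTL4 and ANGPTL8), where 19.5% of all genes tested were called higher, and 2 were lower (LIPC and LIPG), where 20.3% of all genes were. With 32-134D against vehicle at 1% O2, ANGPTL4 and ANGPTL8 were lower, with 13.7% of all genes called lower, and LIPC and LIPG were higher, with 16.2% called higher. These comparisons share the vehicle libraries at 1% O2, so a value that is high or low in those libraries enters both with opposite signs. With 32-134D at 1% O2 against vehicle at 20% O2, 1 member, ANGPTL4, was still higher, beside 3% of all genes. By edgeR 0 members were lower in that comparison, beside 0.516% of all genes, while 1 was lower at an unadjusted p under 0.05 and 0 were lower by DESeq2. ANGPTL6 was not called in any comparison, and LPL had no counts and was not tested. The background depends on the scaling, while these member calls held under each scaling run. Of all calls in hypoxia, 49.0% were higher with TMM, 34.5% with total library size and 35.7% with upper quartile scaling, and the median log2 fold change of all genes was 0.00, -0.21 and -0.19. Of all calls with 32-134D at 1% O2, 54.2%, 72.0% and 66.1% were higher, with medians of -0.01, 0.17 and 0.11. Against vehicle at 20% O2, the shares were 85.3%, 80.2% and 68.4%.

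**Figure D1:**
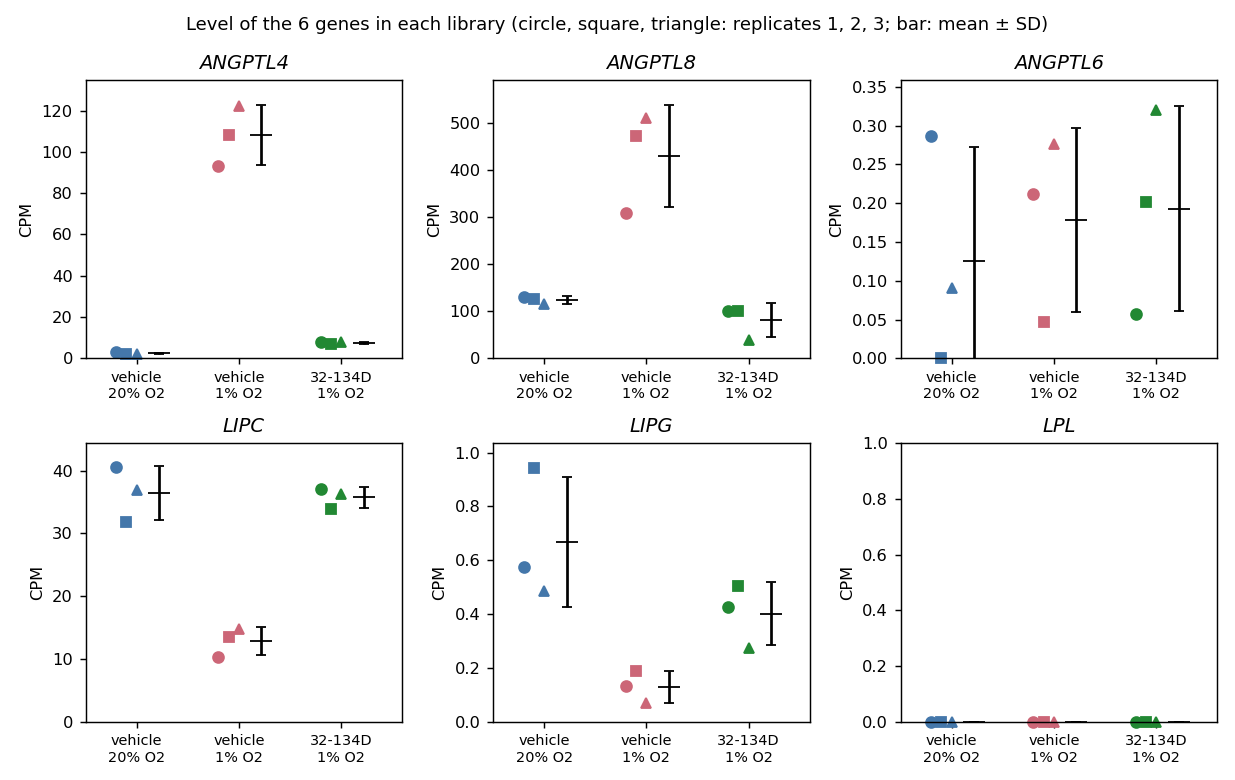
Level of each of the 6 genes in CPM (vertical axis, linear, from 0, with its own range in each panel) in every library of the 3 groups, with the mean and SD beside the points and a marker shape for each replicate number. ANGPTL4 and ANGPTL8 are highest in vehicle at 1% O2 (93.3 to 122 CPM and 308 to 512 CPM), LIPC is lowest there (10.3 to 14.7 CPM), and LPL is at 0 in all 9 libraries.

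The promoters of ANGPTL4, ANGPTL8 and LIPC are shown because the calls of these 3 members rest on the most counts. HIFs bind the core letters ACGTG or GCGTG, and both were searched on both strands in the 250 bases before each RefSeq transcription start (GRCh38.p14). ACGTG was present in 18.5% and GCGTG in 32.2% of 35116 such windows over all genes, so a match is common and only describes the sequence. The printed stretches, on the plus strand and 5′ to 3′, hold no annotated exon base for ANGPTL4 and ANGPTL8, and capitals mark the matches. Both stretches still lie inside the annotated span of their gene, which starts further upstream, at chr19:8363289 for ANGPTL4 and chr19:11237450 for ANGPTL8. That of ANGPTL4 is chr19:8363905-8364144 and holds CACGT, the reverse complement of ACGTG, from 234 to 230 bases upstream of the start. That of ANGPTL8 is chr19:11239369-11239608 and holds GCGTG from 161 to 157 and from 150 to 146 bases upstream. Of the members not printed, LIPG, which was called lower in hypoxia, held 3 matches to GCGTG in its window. ANGPTL6, which was not called, held GCGTG from 121 to 117 and, in another window, from 236 to 232 bases upstream. How the matches relate to the calls was not tested. The window of LIPC held neither core in its 250 bases. Of that window, 193 bases lie in an exon of a longer annotated LIPC transcript that starts further upstream. From LIPC, the 30 bases chr15:58431916-58431945 are printed, all of which lie in that exon. In them the capitals mark GTTAAT and ATTAA with 1 base between them, from 66 to 55 bases upstream. They are inverted half-sites for the hepatocyte factor HNF1, but the second stops 1 letter short of the reverse complement of the first. This pattern was looked for on both strands after the sequence had been read, and was present in 0.0484% of the windows (17 of 35116). Because it was chosen from this sequence, the share only describes the pattern.
ANGPTL4: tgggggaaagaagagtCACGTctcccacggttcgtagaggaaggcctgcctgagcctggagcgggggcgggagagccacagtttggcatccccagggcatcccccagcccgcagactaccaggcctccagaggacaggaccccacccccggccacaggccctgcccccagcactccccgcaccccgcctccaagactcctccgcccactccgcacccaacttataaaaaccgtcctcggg
ANGPTL8: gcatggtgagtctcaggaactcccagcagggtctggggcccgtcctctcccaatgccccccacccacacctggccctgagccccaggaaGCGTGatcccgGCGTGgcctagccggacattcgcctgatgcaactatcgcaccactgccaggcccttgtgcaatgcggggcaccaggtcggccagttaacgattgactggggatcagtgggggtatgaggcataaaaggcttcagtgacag
LIPC: tgttgagagGTTAATTATTAAtgggcagtc

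ANGPTL4 (ENSG00000167772, GRCh38 chr19:8363289-8374373, plus strand) showed the largest changes of the 5 members tested. It stood at 2.87, 2.36 and 2.34 CPM in replicates 1, 2 and 3 of vehicle at 20% O2, which rest on 40, 15 and 77 counts. In vehicle at 1% O2 it stood at 93.3, 108 and 122 CPM, from 2298 to 3537 counts. With 32-134D at 1% O2 it stood at 7.80, 6.87 and 7.82 CPM, from 171 to 275 counts. The 3 groups did not overlap, and each 32-134D library lay above every vehicle library at 20% O2 and far below every vehicle library at 1% O2. The mean rose from 2.52 ± 0.300 to 108 ± 14.5 CPM (SD, n = 3) in hypoxia, a log2 fold change of 5.43 (SE 0.14, edgeR FDR 1.67e-12) or 43.0-fold, which ranked 38 among the 22672 genes tested. It fell to 7.50 ± 0.544 CPM (SD, n = 3) with 32-134D, a log2 fold change of -3.85 (SE 0.11, edgeR FDR 2.98e-11), that is 14.4-fold lower than in vehicle at 1% O2, where it ranked 29 counted from the largest fall. What remained was 2.99-fold above vehicle at 20% O2, a log2 fold change of 1.58 (SE 0.15, edgeR FDR 1.1e-05). RAB11B-AS1 ends on the opposite strand at the last base of ANGPTL4 and shares 1 exonic base with it.

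The expression pattern most like that of ANGPTL4 over the 9 libraries was that of PFKFB4, which encodes a regulator of glycolysis. It was sought among 11972 genes whose normalized counts averaged 100 or more in the group where they were highest. Likeness was the root mean square (RMS) difference of log2 CPM after each gene was centred on its own mean, and it was 0.37 for PFKFB4. CA9, a carbonic anhydrase, followed at 0.43 and ADM, which encodes the vasodilator adrenomedullin, at 0.47. In hypoxia the log2 fold changes were 5.14 for PFKFB4, 4.38 for CA9 and 5.19 for ADM, and with 32-134D at 1% O2 they were -3.09, -3.36 and -2.79. All 3 had smaller falls with the compound than the -3.85 of ANGPTL4, a difference that was not tested.

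ANGPTL8 (ENSG00000130173, GRCh38 chr19:11237450-11241943, plus strand) was the most abundant member in every group. It stood at 130, 127 and 115 CPM in vehicle at 20% O2, from 810 to 3768 counts. In vehicle at 1% O2 it stood at 308, 472 and 512 CPM, all above the other groups. With 32-134D it stood at 101, 102 and 39.3 CPM, replicate 3 being well below the other two and all 3 being below vehicle at 20% O2. The mean rose from 124 ± 8.37 to 431 ± 108 CPM (SD, n = 3) in hypoxia, a log2 fold change of 1.80 (SE 0.27, edgeR FDR 4.22e-05) or 3.48-fold. It fell to 80.7 ± 35.9 CPM (SD, n = 3) with 32-134D, a log2 fold change of -2.41 (SE 0.27, edgeR FDR 4.4e-06), 5.31-fold lower, and the change was -2.08 without replicate 3. Against vehicle at 20% O2 the log2 fold change was -0.61 (SE 0.27, edgeR FDR 0.168), which was not called, and it was -0.29 without replicate 3. The same comparison was called when genes with few counts were kept in the fit (log2 fold change -0.59, edgeR FDR 2.49e-10). That fold change is close to the threshold. In fits that each left out 1 library, the edgeR FDR was 0.0861 to 0.321, so this call depends on the filter.

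ANGPTL8 lies inside DOCK6, which runs on the opposite strand and encodes an activator of small GTPases. The genes share 350 exonic bases, 28.6% of the exons of ANGPTL8, and the strand setting of the counting is not given in the sources used here, so reads of the 2 genes in the shared part cannot be told apart. DOCK6 stood at 81.6 ± 7.31, 57.3 ± 2.67 and 77.0 ± 6.34 CPM (SD, n = 3) in vehicle at 20% O2, vehicle at 1% O2 and 32-134D at 1% O2. It had log2 fold changes of -0.51 (hypoxia) and 0.43 (32-134D at 1% O2), both under the fold threshold and opposite in sign to those of ANGPTL8. The ratio of ANGPTL8 to DOCK6 counts was 1.78, 1.50 and 1.32 in vehicle at 20% O2. The ratio was 5.68, 8.05 and 8.68 in vehicle at 1% O2 and 1.41, 1.35 and 0.467 with 32-134D. The ratio was thus higher in every vehicle library at 1% O2 than in any other library.

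**Figure D2:**
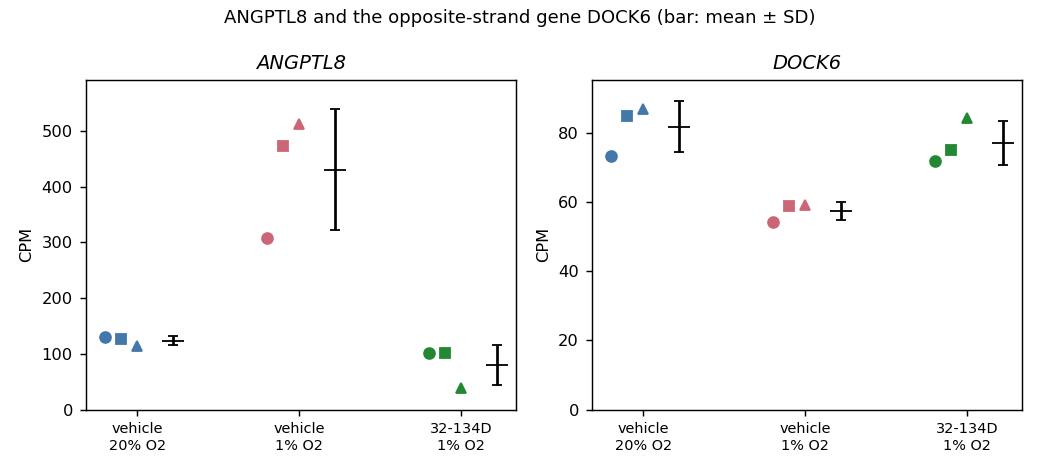
Level in CPM (vertical axes, linear, from 0) of ANGPTL8 and of DOCK6, the gene around it on the opposite strand, in every library of the 3 groups, with the mean and SD beside the points. ANGPTL8 is highest in vehicle at 1% O2, at 308 to 512 CPM, where DOCK6 is lowest, at a mean of 57.3 CPM.

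The genes most like ANGPTL8 by the same measure were SMAD5-AS1 (RMS difference 0.15), AQP10, which encodes a water and glycerol channel (0.18), and CCDC183 (0.31). Nothing was tested about what they share.

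ANGPTL6 (ENSG00000130812, GRCh38 chr19:10092338-10102796, minus strand) was close to the limit of detection, with 39 counts in all. It had 4, 0 and 3 counts in vehicle at 20% O2, then 8, 1 and 8 in vehicle at 1% O2, and 2, 6 and 7 with 32-134D. The counts of the groups overlapped throughout, and the sign of the second change below turned with other scalings. The log2 fold change was 0.47 (SE 0.86, edgeR FDR 0.678) in hypoxia, -0.07 (SE 0.72, edgeR FDR 0.955) with 32-134D at 1% O2, and 0.40 (SE 0.88, edgeR FDR 0.836) against vehicle at 20% O2. The approximate 95% interval in hypoxia ran from -1.23 to 2.16, so that changes of this size were not detectable at this depth. Its last part shares 442 exonic bases (20.3% of its exons) with SHFL, an antiviral gene on the opposite strand, which had log2 fold changes of -1.0 in hypoxia and 0.80 with 32-134D at 1% O2.

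Among the lipases, LPL (ENSG00000175445, GRCh38 chr8:19901717-19967259, plus strand) had 0 counts in all 9 libraries. A count of 0 allows up to 3 counts, which is 0.0795 to 0.471 CPM in single libraries and 0.0130 CPM over all 230348622 counts together. This bound covers counting error only. GPIHBP1, which encodes the anchor that carries LPL to the capillary surface, was also at 0 in all 9 libraries.

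LIPC (ENSG00000166035, GRCh38 chr15:58410569-58569843, plus strand), the hepatocyte lipase, moved the other way from ANGPTL4 and ANGPTL8. It stood at 40.5, 31.9 and 36.8 CPM in vehicle at 20% O2, from 203 to 1211 counts. In vehicle at 1% O2 it stood at 10.3, 13.5 and 14.7 CPM, and with 32-134D at 37.0, 33.9 and 36.3 CPM. The vehicle libraries at 1% O2 lay below all others, and the remaining groups overlapped. The mean fell from 36.4 ± 4.34 to 12.8 ± 2.30 CPM (SD, n = 3) in hypoxia, a log2 fold change of -1.52 (SE 0.13, edgeR FDR 1.21e-07), 2.87-fold lower. It rose to 35.7 ± 1.63 CPM (SD, n = 3) with 32-134D, a log2 fold change of 1.48 (SE 0.13, edgeR FDR 2.81e-07) or 2.79-fold. Against vehicle at 20% O2 the log2 fold change was -0.04 (SE 0.12, edgeR FDR 0.898), with an approximate 95% interval from -0.28 to 0.20. The genes most like LIPC were AGMO (RMS difference 0.12), ARMC6 (0.14) and RTL8B (0.15), of which AGMO encodes an enzyme that cleaves ether lipids. LIPC shares no exonic base with the genes that overlap its span, ALDH1A2 and LIPC-AS1 on the opposite strand and AC084781.1, AC084781.2 and AC018904.2 on its own.

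LIPG (ENSG00000101670, GRCh38 chr18:49560699-49599182, plus strand) moved in the same directions as LIPC but from 77 counts in all. It had 8, 6 and 16 counts in vehicle at 20% O2, 5, 4 and 2 in vehicle at 1% O2, and 15, 15 and 6 with 32-134D. In CPM these were 0.574, 0.942 and 0.487, then 0.133, 0.189 and 0.0691, then 0.425, 0.505 and 0.274. The vehicle libraries at 1% O2 were lowest and did not overlap with either other group. The log2 fold change was -2.20 (SE 0.51, edgeR FDR 0.00206) in hypoxia and 1.66 (SE 0.50, edgeR FDR 0.0123) with 32-134D at 1% O2. The second call was lost after thinning all libraries to the smallest total (log2 fold change 0.82, edgeR FDR 0.487) and without replicate 2 of 32-134D (1.48, edgeR FDR 0.0534). Against vehicle at 20% O2 the log2 fold change was -0.54 (SE 0.43, edgeR FDR 0.499). The genes most like LIPG were SLC38A11 (RMS difference 0.22), AP006621.5 (0.24) and PDGFD (0.27), at counts where counting error is large.

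**Figure D3:**
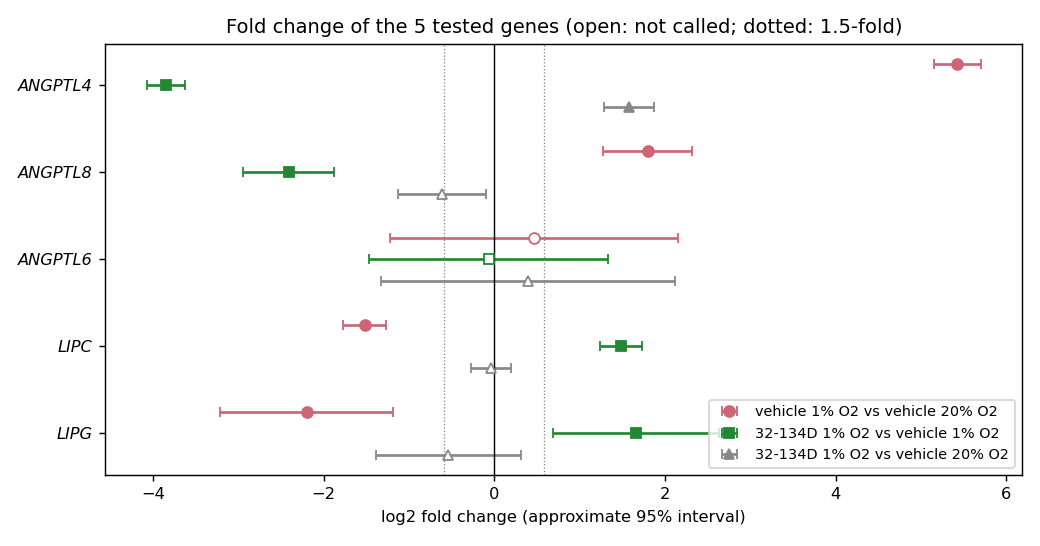
Log2 fold change of each member tested (horizontal axis) in the 3 comparisons, with approximate 95% intervals as bars and the 1.5-fold threshold marked. ANGPTL4 and ANGPTL8 lie right of 0 in hypoxia (5.43 and 1.80) and left of 0 with 32-134D at 1% O2 (-3.85 and -2.41), LIPC and LIPG lie on the opposite sides, and ANGPTL6 spans 0 throughout.

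The order of the members by CPM per kb of exon differed between vehicle at 20% O2 and vehicle at 1% O2. ANGPTL4 and LIPC changed places in plain CPM as well. The division itself moved LIPG, with 13112 exonic bases, below ANGPTL6, with 2181. In plain CPM, LIPG was above ANGPTL6 in vehicle at 20% O2 (0.667 and 0.126) and with 32-134D (0.402 and 0.193). In vehicle at 20% O2, ANGPTL8 came first at 101 CPM per kb, then LIPC at 7.02 and ANGPTL4 at 1.02, and the libraries of these 3 genes did not overlap. ANGPTL6 (0.0578) and LIPG (0.0509) followed and overlapped each other, with LPL at 0. In vehicle at 1% O2 the order was ANGPTL8 at 352 CPM per kb, ANGPTL4 at 43.5, LIPC at 2.48, ANGPTL6 at 0.0819 and LIPG at 0.00992, with no overlap between neighbours, so that ANGPTL4 and LIPC had changed places. The places of ANGPTL6 and LIPG there rest on 17 and 11 counts over the whole group, so their order is uncertain. With 32-134D at 1% O2 the order was again that of vehicle at 20% O2, with ANGPTL8 at 66.0, LIPC at 6.89 and ANGPTL4 at 3.02 CPM per kb, and with ANGPTL6 (0.0885) and LIPG (0.0306) overlapping.

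Genes that work with the members were followed in 7 lists of 54 genes, of which 45 were tested and 6 had no count. In hypoxia 8 of the 45 were called higher, beside 19.5% of all genes tested, and 17 were called lower, beside 20.3%, with a median log2 fold change of -0.29 where the median of all genes tested was 0.00. With 32-134D at 1% O2, 16 of the 45 were higher, beside 16.2% of all genes, and 8 were lower, beside 13.7%, with a median of 0.40 against -0.01 for all genes. Against vehicle at 20% O2, 1 was higher, beside 3% of all genes, and 1 was lower, beside 0.516%, with a median of -0.16 against -0.00. The higher one was VLDLR, at a log2 fold change of 1.22, and the lower one PLA1A, at -0.73.

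Among other angiopoietin-like genes, ANGPTL2 rose in hypoxia and fell with 32-134D at 1% O2. ANGPTL2, a secreted protein linked to inflammation, stood at 2.22 to 2.51 CPM in vehicle at 20% O2, 7.53 to 10.3 CPM in vehicle at 1% O2 and 1.96 to 3.11 CPM with 32-134D. Its log2 fold changes were 1.94 (SE 0.20, edgeR FDR 1.11e-06) and -1.81 (SE 0.18, edgeR FDR 1.48e-06). ANGPTL5 and ANGPTL7 were at 0 and ANGPTL1 had 8 counts, so none of them was tested. Of the angiopoietins and their receptors, ANGPT2 and TIE1 were tested and neither was called in any comparison by edgeR or DESeq2 or reached an unadjusted p under 0.05. ANGPT4 and TEK were at 0, and ANGPT1 had 1 count.

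Of the 10 genes tested for maturation, transport and cleavage of the lipases, 6 fell in hypoxia, where 20.3% of all genes were called lower, and 0 rose by edgeR or DESeq2, with 1 higher at an unadjusted p under 0.05. With 32-134D at 1% O2, 5 rose, where 16.2% of all genes were called higher. HSPG2, the heparan sulfate proteoglycan perlecan, stood at 1475 to 2197 CPM in vehicle at 20% O2, 193 to 205 CPM in vehicle at 1% O2 and 1499 to 1581 CPM with 32-134D. HSPG2 had a log2 fold change of -3.26 in hypoxia (SE 0.12, edgeR FDR 4.44e-11) and one of 2.93 with 32-134D (SE 0.12, edgeR FDR 4e-10). LMF1, the chaperone that LPL, LIPC and LIPG need to fold, had log2 fold changes of -1.09 and 0.85, and SDC1, a heparan sulfate proteoglycan that takes up lipoproteins in the liver, of -0.98 and 0.67, all 4 called. PCSK5, a convertase that cleaves LPL and LIPG, rose with 32-134D at 1% O2 by 2.17 on the log2 scale, or 1.29 without replicate 3, in which it stood at 27.5 CPM beside 7.54 and 7.68 CPM.

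Of the 5 apolipoproteins that act on the lipases, 1 was called higher and 1 lower in hypoxia, beside 19.5% and 20.3% of all genes tested. With 32-134D at 1% O2, 1 was higher and 1 lower, beside 16.2% and 13.7%. With TMM scaling, APOC1, an LPL inhibitor too, APOA5 and APOE were not called in either comparison. APOC1 had log2 fold changes of -0.25 and 0.05. APOC3, an inhibitor of LPL and of remnant uptake, moved as the inhibitor genes did. APOC2, the cofactor that LPL requires, moved as the lipase genes did. APOC3 stood at 14.4 to 17.1 CPM in vehicle at 20% O2, 24.6 to 35.4 CPM in vehicle at 1% O2 and 7.41 to 13.2 CPM with 32-134D. Its log2 fold changes were 0.95 (SE 0.18, edgeR FDR 0.0004) and -1.50 (SE 0.18, edgeR FDR 7.34e-06), and the second was -1.30 without replicate 3 of 32-134D. APOC2 fell by 1.59 in hypoxia on the log2 scale (SE 0.24, edgeR FDR 5.14e-05) and rose by 1.29 with 32-134D at 1% O2 (SE 0.23, edgeR FDR 0.000306). That second value of APOC2 lies outside the rule for named genes and was picked after it had been seen.

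Of the 7 receptors for lipoproteins and fatty acids, VLDLR and LSR rose in hypoxia and CD36, LRP8 and LRP1 fell. Of all genes tested, 19.5% were called higher and 20.3% lower in hypoxia. VLDLR, a receptor for triglyceride-rich particles, stood at 6.67 to 8.61 CPM in vehicle at 20% O2, 40.2 to 45.1 CPM in vehicle at 1% O2 and 14.8 to 23.8 CPM with 32-134D. Its log2 fold changes were 2.42 and -1.20, the second being -1.42 without replicate 3 of 32-134D, and those of LSR, a hepatic receptor for remnants, were 1.40 and -1.30. CD36, a fatty acid transporter, had log2 fold changes of -1.97 and 1.45, the second being 1.68 without replicate 3 of 32-134D, and LRP1, a hepatic remnant receptor, of -1.62 and 1.32. LRP8, a receptor for apolipoprotein E, had log2 fold changes of -1.95 and 2.98, and the second was 2.0 without replicate 3 of 32-134D, in which it stood at 33.6 CPM beside 8.76 and 8.05 CPM. All 10 of these changes were called.

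Of the 7 other lipases tested, 1 rose and 4 fell in hypoxia, where 19.5% of all genes were called higher and 20.3% lower. The reverse numbers held with 32-134D at 1% O2, where 16.2% of all genes were called higher and 13.7% lower. PNPLA2, the main triglyceride lipase of lipid droplets, had log2 fold changes of 0.81 and -0.69, the second of which was -0.51 with total library size and -0.57 with upper quartile scaling and not called with either. PNPLA3, a lipid droplet protein, had -2.01 and 1.45, the second being 1.68 without replicate 3 of 32-134D, and PLA1A, a secreted phosphatidylserine lipase, -1.56 and 0.84. LIPH, a phosphatidic acid lipase, had -1.46 and 0.74, the second being 1.06 without replicate 3 of 32-134D, in which it stood at 2.79 CPM beside 7.32 and 7.81 CPM, and its second call was kept in 3 of 9 fits that each left out 1 library.

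Among 12 transcription factors known for these genes, 2 were called higher and 3 lower in hypoxia, beside 19.5% and 20.3% of all genes. With 32-134D at 1% O2, 3 were higher and 2 lower, beside 16.2% and 13.7%. Whether these numbers differ from the shares of all genes was not tested. FOXA2 and NR1H2 (LXR beta) rose in hypoxia, by 1.24 and 0.79 on the log2 scale, and fell by 1.08 and 0.65 with 32-134D at 1% O2. MLXIPL (ChREBP) and SREBF1, which drive the synthesis of fatty acids, had log2 fold changes of -1.69 and -1.50 in hypoxia and of 1.14 and 1.16 with 32-134D. Those of RXRA, the partner of the PPARs and LXRs, were -1.18 and 0.71. The libraries with 32-134D were spread from 141 to 231 CPM for RXRA, beside 118 to 128 CPM in vehicle at 1% O2. All 10 of these changes were called, but those of NR1H2 were not called with total library size in hypoxia (0.58), nor with total library size (-0.46) or upper quartile scaling (-0.53) with 32-134D. The other 7 factors were not called in any comparison.

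**Figure D4:**
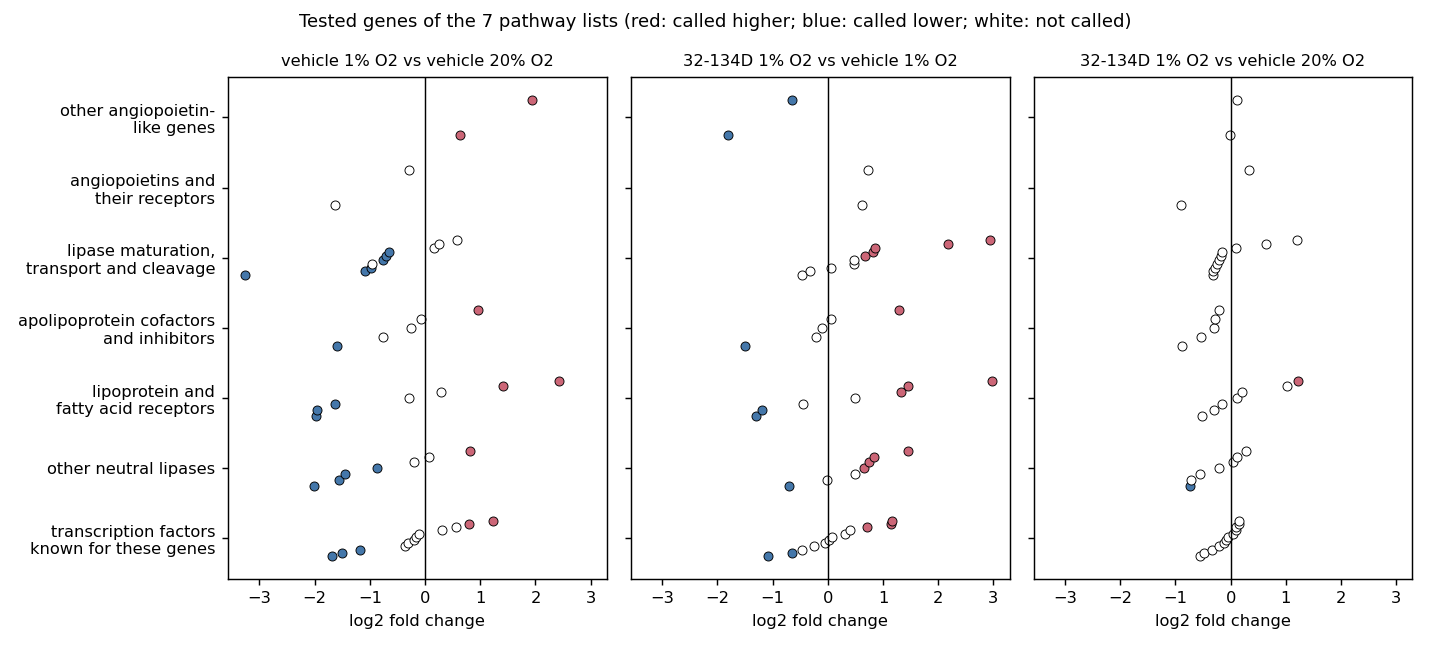
Log2 fold change (horizontal axis) of every tested gene of the 7 lists (points, grouped by list) in the 3 comparisons, red where called higher, blue where called lower and white where not called. In hypoxia 8 points are called higher and 17 lower, with 32-134D against vehicle at 1% O2 16 are higher and 8 lower, and against vehicle at 20% O2 1 is higher and 1 lower.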

How the data were processed

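RNA-seq counts of 9 Hep3B cultures were analysed, 3 in each of 3 groups taken from the sample titles. The authors deposited raw read counts per Ensembl gene, not normalized, and per the labels and the methods of the study they used FastQC, Bbduk, STAR and featureCounts on GRCh38, and DESeq2 for their own tests. Tool versions and the strand setting of the counting are not given in the sources used here. The sample labels describe DMEM/F12 medium and the methods of the study high-glucose DMEM. All table columns matched a sample by name, with 0 left over, and replicates differed by more than sampling noise (chi-square divided by its degrees of freedom, 1.62 to 36.4).

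Genes whose counts summed to at least 10 were fitted together with edgeR 4.0.16 (R 4.3.3), with TMM scaling, and the common biological coefficient of variation was 10.5%. The comparisons were vehicle at 1% O2 against vehicle at 20% O2, and 32-134D against each vehicle group. The SE was derived from the log2 fold change and its quasi-likelihood F, and approximate 95% intervals use the normal quantile. A count of 0 was taken to allow up to 3 counts. Alternatives were DESeq2 1.42.0, other scalings, filters and fold thresholds, fits of only the groups compared, thinned counts, the replicate number as a block, and fits without each library. Positions and exon lengths came from GENCODE version 29, in which all 67 listed identifiers were found, and the promoters from RefSeq, which held 7 windows for 5 of the 6 members. The deposited counts follow an Ensembl release newer than that annotation, on the same assembly. The fit was tested on simulated data.

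The members, the lists of related genes and the markers were chosen with earlier results of these data known, so their calls are not independent support for one another. The text names the members, genes overlapping them, CA9 and VEGFA, up to 3 called genes at each end of each list in each comparison (those averaging 50 or more normalized counts in the group where they are higher), and the 3 genes whose pattern is most like that of each called member. Genes with no or few counts and genes not called are named to account for the lists. The values of 1 listed gene are not reported here. Replicate numbers did not pair the samples.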

Additional observations from a re-analysis of the deposited data

How the results depend on the processing

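The precision of every value was limited by 3 replicates per group and, for ANGPTL6 and LIPG, by few counts. The calls of ANGPTL4, of ANGPTL8 in hypoxia and with 32-134D at 1% O2, and of LIPC held in every alternative run. Requiring at least 10 counts in every library left 1 member lower in hypoxia and 1 higher with 32-134D at 1% O2, because LIPG was no longer tested. Thinning to the smallest library also left 1 higher with 32-134D, and leaving out single libraries gave 1 to 2, the lower count without replicate 2 of 32-134D. With no filter on low counts, 1 member (ANGPTL8) was lower with 32-134D than in vehicle at 20% O2. The log2 fold change of ANGPTL6 with 32-134D at 1% O2 changed sign with DESeq2 (0.089), total library size (0.11), upper quartile scaling (0.054) and the replicate block (0.053), and ran from -0.58 to 0.48 when single libraries were left out. In hypoxia it then ran from -0.0079 to 1.26 and against vehicle at 20% O2 from -0.11 to 1.24. That of LIPC against vehicle at 20% O2 ran from -0.11 to 0.047. None of these was called, and the cause was not tested.

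Of the listed genes, those higher in hypoxia numbered 4 and those higher with 32-134D at 1% O2 numbered 9 at a fold change above 2. Those lower with 32-134D at 1% O2 numbered 5 with total library size, upper quartile scaling or a fold change above 2, and 13 with no fold threshold. Against vehicle at 20% O2, 4 were higher with no filter and 1 to 4 when single libraries were left out (4 without replicate 1 and 3 without replicate 2 of 32-134D). Lower ones numbered 2 with DESeq2, no filter or thinning, 3 with upper quartile scaling, 0 with a fold change above 2, 6 with no fold threshold and 0 to 5 when single libraries were left out, with 0 without replicate 3 of vehicle at 20% O2 and 5 without replicate 1 of 32-134D.

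Replicate numbers did not pair the samples (r of deviations from group means between same-numbered libraries from -0.03 to 0.01, and 0 libraries correlated best with their own number). The replicate block gave 2 members higher and 2 lower in hypoxia, the same numbers with 32-134D at 1% O2, and 9 listed genes higher in hypoxia in place of 8. Over all genes, those higher in hypoxia numbered 4412, and 2824 with at least 10 counts in every library or 2449 at a fold change above 2. Those lower with 32-134D at 1% O2 numbered 3100, against 1771 with at least 10 counts in every library, 1847 with total library size, 1188 at a fold change above 2, 5788 with no fold threshold and 2060 after thinning. Those higher with 32-134D than in vehicle at 20% O2 numbered 681, against 283 at a fold change above 2 and 1771 with no fold threshold. Those lower numbered 117, against 247 with upper quartile scaling, 291 with no filter, 21 at a fold change above 2, 553 with no fold threshold, 39 with only the groups compared, and 35 to 198 when single libraries were left out (35 without replicate 2 of vehicle at 20% O2, 198 without replicate 1 of 32-134D).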
